A study of Homo sapiens with 9 samples.

Results

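Glucose enters a cell through carriers of the SLC2A family and is phosphorylated by hexokinases, and 2-deoxy-D-glucose (2-DG) uses the same steps. The 9 genes described here are 5 carriers (SLC2A1, SLC2A3, SLC2A6, SLC2A8 and SLC2A10) and 4 genes of the hexokinase family (HK1, HK2, HK3 and HKDC1). They were chosen by name from the 61552 genes listed for each library. All 9 were found, each as 1 protein-coding gene, and 8 of them had enough reads for a test. Their RNA was measured in MDA-MB-231 cells, an established human line of triple-negative breast cancer (TNBC), grown in DMEM with 10% serum. The cells received phosphate-buffered saline (control, 0 mM 2-DG), 10 mM 2-DG or 20 mM 2-DG for 24 h. Each of the 3 conditions had 3 libraries. The labels give them as replicates of 1 cell line and do not say whether they came from separate cultures. The p-values below therefore set differences between conditions against the spread between these libraries, which may be technical. Cells given lactate are not analysed here.

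A carrier moves glucose down its gradient across a membrane, and phosphorylation then keeps the sugar inside the cell. 2-DG is a glucose analogue that carriers and hexokinases accept. Its phosphate cannot pass through the later steps of glycolysis, so it builds up and slows the pathway. Tumour cells often hold high levels of SLC2A1 and HK2, which is the basis of glucose imaging of tumours. The carriers differ in where they work. SLC2A1 (GLUT1) and SLC2A3 (GLUT3) act at the cell surface, while SLC2A6 (GLUT6), SLC2A8 (GLUT8) and SLC2A10 (GLUT10) are found mainly on membranes inside the cell. Among the enzymes, HK1 is the common form of most tissues, HK2 is the inducible form of muscle, fat and many tumours, HK3 is found mainly in blood cells, and HKDC1 is a related protein that was described later.

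On GRCh38 with the GENCODE release 29 annotation, HKDC1 and HK1 lie side by side on the plus strand of chromosome 10. HKDC1 (ENSG00000156510) covers chr10:69220303-69267559 and HK1 (ENSG00000156515) covers chr10:69269984-69401884, with 2424 bases and no annotated gene between them. HK2 (ENSG00000159399) is at chr2:74833981-74893359 on the plus strand. HK3 (ENSG00000160883) is at chr5:176880869-176899332 on the minus strand. Of the carriers, SLC2A1 (ENSG00000117394) is at chr1:42925375-42959176, SLC2A3 (ENSG00000059804) at chr12:7919230-7936275 and SLC2A6 (ENSG00000160326) at chr9:133471095-133479137, all on the minus strand. SLC2A8 (ENSG00000136856), at chr9:127397138-127408424, and SLC2A10 (ENSG00000197496), at chr20:46709487-46736347, are on the plus strand.

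The sequences before 4 of the genes are shown because HKDC1 had the largest fold rise in mean FPKM, HK2 and SLC2A8 had the largest fold falls, and HK1 is the neighbour of HKDC1. They come from RefSeq (GRCh38.p14), run 5′ to 3′ on the plus strand, and end at the last base before the first annotated exon. RefSeq promoters were at hand for 8 of the 9 genes, all but SLC2A3. Capitals mark whole matches within the stretch, on either strand, to the GC box (GGGCGG), the hypoxia element core (ACGTG), the TATA box (TATAAA), the CCAAT box (CCAAT) and the amino acid response element (TGATGNAAT). The windows are chr10:69220082-69220302 for HKDC1, chr10:69269750-69269983 for HK1, chr2:74833877-74833980 for HK2 and chr9:127396919-127397137 for SLC2A8.
HKDC1: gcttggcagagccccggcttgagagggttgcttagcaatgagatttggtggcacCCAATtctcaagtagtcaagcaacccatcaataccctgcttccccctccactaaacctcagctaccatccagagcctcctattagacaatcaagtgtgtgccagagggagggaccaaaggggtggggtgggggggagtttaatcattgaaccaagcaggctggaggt
HK1: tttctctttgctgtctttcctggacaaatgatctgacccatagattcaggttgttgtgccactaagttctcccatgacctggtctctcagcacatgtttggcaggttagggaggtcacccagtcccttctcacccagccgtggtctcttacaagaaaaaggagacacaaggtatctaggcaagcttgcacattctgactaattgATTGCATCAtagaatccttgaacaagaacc
HK2: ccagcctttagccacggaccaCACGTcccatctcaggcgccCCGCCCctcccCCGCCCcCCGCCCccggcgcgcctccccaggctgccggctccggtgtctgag
SLC2A8: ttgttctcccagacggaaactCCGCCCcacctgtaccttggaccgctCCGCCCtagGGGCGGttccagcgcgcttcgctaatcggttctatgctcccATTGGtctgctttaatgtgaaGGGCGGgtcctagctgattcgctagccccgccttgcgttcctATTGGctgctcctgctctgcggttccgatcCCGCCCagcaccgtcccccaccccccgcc

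These motifs were chosen after the expression values had been seen, and they were counted in the 250 bases before each RefSeq start, which reach past the stretches printed. HK2 held 4 GC boxes, 2 hypoxia element cores and 2 CCAAT boxes. One of its hypoxia element cores lies inside a match to TGACGTG, the core of an unfolded protein response element. SLC2A8 held 6 GC boxes and 3 CCAAT boxes. HKDC1 held 1 CCAAT box and none of the other motifs searched. HK1 held the amino acid response element, on the minus strand at position -46 from the start, and no GC box. SLC2A6 held 4 GC boxes and 2 CCAAT boxes, and SLC2A10 held 3 GC boxes and 1 hypoxia element core. These 2 carriers did not pass the test below at either dose. HK3 held none of the motifs searched. The E-box CACGTG and the cyclic AMP element TGACGTCA were also searched and were in none of the 8 windows. SLC2A1, whose window lies wholly inside annotated exons and is not printed, held 2 GC boxes, 1 CCAAT box and a TATA box at position -31. Over all 27305 promoters of the same length, 42.3% held a GC box, 33.0% a CCAAT box, 18.7% a hypoxia element core, 11.1% a TATA box, 6.49% an E-box, 1.77% the cyclic AMP element, 1.71% TGACGTG and 0.916% the amino acid response element. The GC content was 76.8% before HK2, SLC2A6 and SLC2A10, 72.4% before SLC2A1 and 65.2% before SLC2A8. It was 54.4% before HKDC1, 48.4% before HK3 and 46.8% before HK1, against a median of 58% over all promoters. Each window lies before only 1 start of its gene, while GENCODE release 29 lists 13 different transcript starts for HK1 and 14 for SLC2A8. Which start these cells use was not tested, so other promoters of the same gene may differ from the window described. Short letter matches of this kind are a description of these windows and do not show that a factor binds there.

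The values are FPKM, reads divided by gene length and library total, so levels of different genes can be set side by side. Between 30974968 and 40843638 reads per library were recovered from them. Replicates correlated at Pearson's r between 0.989 and 0.996 over genes. All 8 markers of MDA-MB-231 cells that should be expressed had a mean of at least 1 FPKM, while ESR1, PGR, FOXA1 and CDH1 were below 1 FPKM, and 3 of the 7 markers that should be absent or low were not (ERBB2, EPCAM and GATA3). Of 9 leukocyte markers, CD14 was above 1 FPKM, and CSF3R and FCGR3B were at 0. The summed leukocyte markers lay between 3.13 and 4.54 FPKM in the control, between 1.97 and 3.19 at 10 mM 2-DG and between 1.36 and 2.29 at 20 mM 2-DG. Of 7 fibroblast and endothelial markers, 2 were above 1 FPKM, and their sum went from between 3.03 and 3.16 FPKM in the control to between 1.87 and 2.24 FPKM at 20 mM 2-DG. The part of these shifts in the results below was not tested. In bulk RNA, fewer cells that express a gene and less of its RNA per cell cannot be told apart.

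In the control, SLC2A1 had the highest level of the 9 genes, followed by HK1. HK2, SLC2A6, SLC2A3, HKDC1, SLC2A8 and SLC2A10 followed in that order, and HK3 was at 0. No neighbours in this order overlapped between their 3 libraries. With 2-DG, the middle of the order closed up. At 10 mM 2-DG, SLC2A3, HKDC1, SLC2A6 and HK2 followed each other with overlapping libraries. With 20 mM 2-DG, HKDC1 and SLC2A3 stood above SLC2A6 and HK2, overlapping only with each other. At both doses HK1 stood above SLC2A1 without overlap, with means of 82.9 and 70.3 FPKM at 10 mM 2-DG and of 91.0 and 73.4 FPKM at 20 mM 2-DG. With the reads kept as counted, this order in the treated cells depends on the gene length used, while that in the control does not. The length found from the deposited values of SLC2A1, 6614 bases, is 1.40 times its exon length in GENCODE release 29. With the same reads divided by the GENCODE length, SLC2A1 would stand at 132 FPKM in the control. It would have 98.4 FPKM at 10 mM and 103 FPKM at 20 mM 2-DG, above HK1 in each condition. Reads outside the GENCODE exons, if any were counted, are kept in these values, which may therefore be too high. Comparisons of 1 gene between conditions do not depend on this length.

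**Figure D1:**
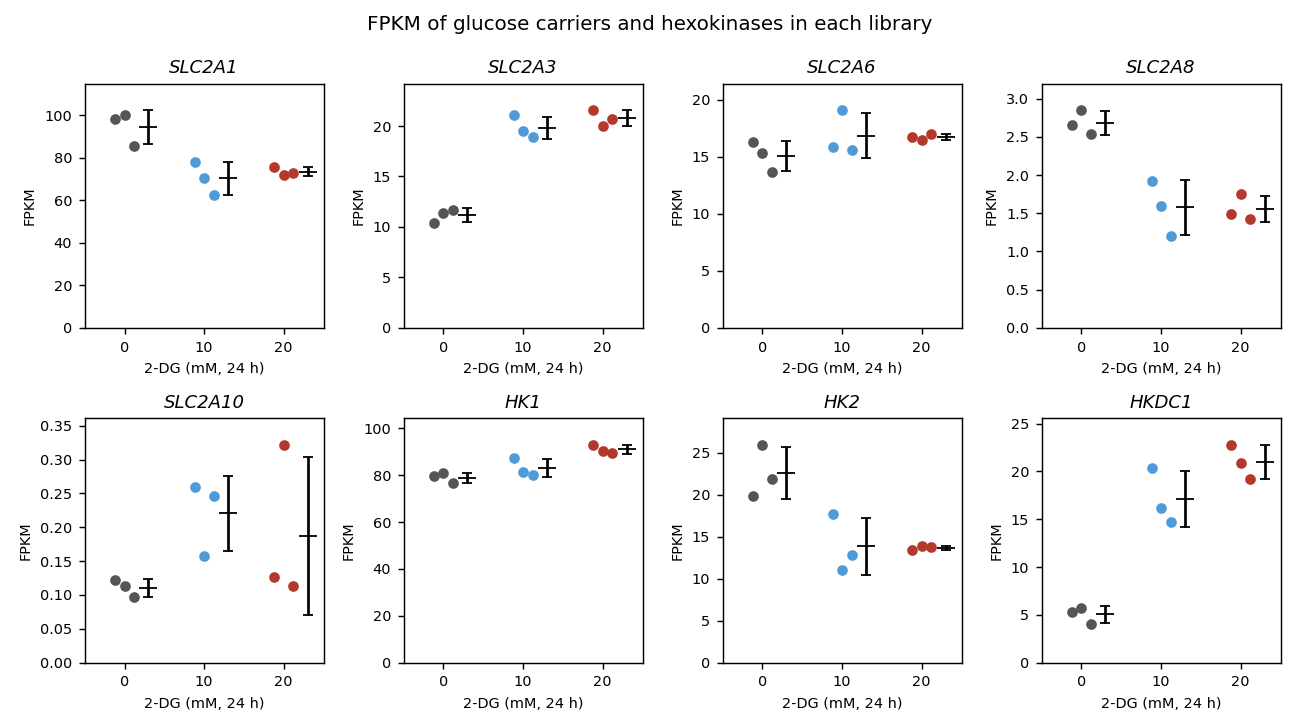
FPKM (vertical axes, each from 0) of the 8 genes with a test at 0, 10 and 20 mM 2-DG. Points are libraries and the black bars are the mean ± SD of 3 libraries. HKDC1 and SLC2A3 lie higher in all 6 treated libraries than in the control, and SLC2A1, SLC2A8 and HK2 lie lower.

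Each gene was compared between conditions with limma's moderated test on log2(FPKM + 1), fitted over all 16572 genes with enough reads, and a gene was called changed at a Benjamini-Hochberg adjusted p under 0.05. At 10 mM 2-DG, SLC2A3 and HKDC1 were higher than in the control, SLC2A1, SLC2A8 and HK2 were lower, and 3 of the 8 genes tested did not pass. With 20 mM 2-DG the same 5 genes passed in the same directions and HK1 joined the higher ones, which left SLC2A6 and SLC2A10. Thus 2 genes were higher and 3 lower at 10 mM 2-DG, and 3 higher and 3 lower at 20 mM 2-DG. Of all genes tested, 12.1% were called higher and 17.5% lower at 10 mM 2-DG, and 15.4% higher and 21.6% lower at 20 mM 2-DG. Both doses were compared with the same 3 control libraries.

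By the stricter rule in the methods of the study (p under 0.05 without adjustment and a log2 fold change beyond 1 in either direction), HKDC1 was the only one of the 9 called, and it was higher at both doses. Of all genes tested, 0.579% were called higher by that rule at 10 mM 2-DG and 0.965% at 20 mM 2-DG. For lower calls these shares were 1.16% and 1.96%, with none of the 9 genes among them. The cut-off was set here on the log2(FPKM + 1) scale, which understates changes of low genes, while the study used DESeq2. By limma-voom on the recovered reads, the same rule called 730 genes higher and 857 lower at 10 mM 2-DG. At 20 mM 2-DG it called 927 higher and 1193 lower, of the same 16572 genes. HKDC1 was again the only one of the 9 called.

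**Figure D2:**
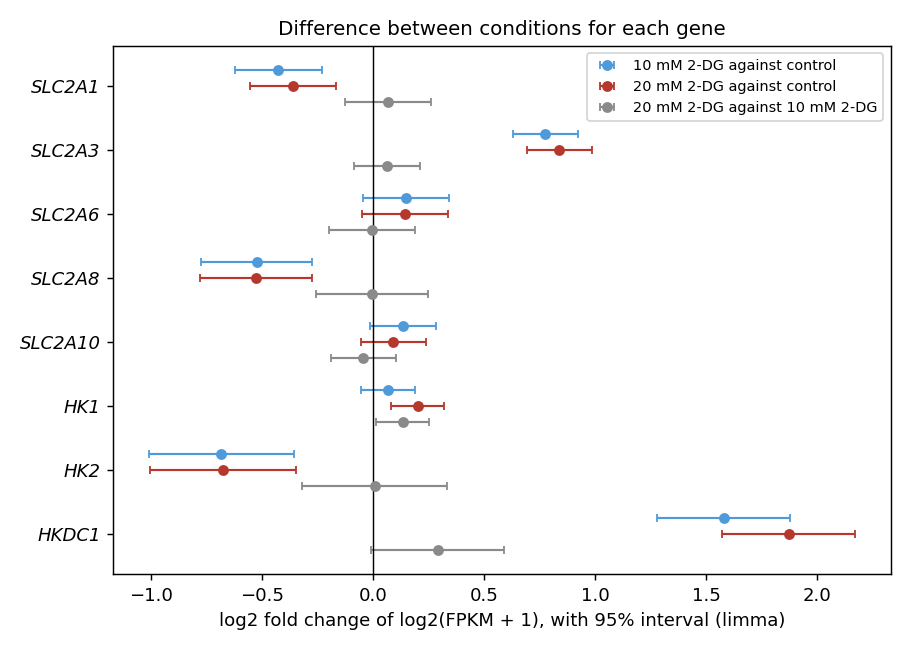
log2 fold change on the log2(FPKM + 1) scale (horizontal axis) with its 95% interval from limma, for 10 mM 2-DG against control, 20 mM 2-DG against control and 20 mM against 10 mM 2-DG. Only the HKDC1 and SLC2A3 intervals lie wholly above 0 at both doses, those of SLC2A1, SLC2A8 and HK2 lie wholly below it, and the between-dose intervals include 0 except that of HK1.

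Among the surface carriers, SLC2A1, which supplies most tumour cells with glucose, fell. Its level in the control libraries was 98.3, 100.1 and 85.5 FPKM. At 10 mM 2-DG it was 78.0, 70.3 and 62.6 FPKM, and at 20 mM 2-DG it was 75.8, 71.7 and 72.7 FPKM. All 6 treated libraries were below the lowest control library. The control mean was 94.6 ± 7.95 FPKM (SD, n = 3), against 70.3 ± 7.70 FPKM at 10 mM 2-DG and 73.4 ± 2.10 FPKM at 20 mM 2-DG, which is 25.7% and 22.4% lower. The log2 fold change was -0.43 (SE 0.0870, adjusted p = 0.00526 from limma's test) at 10 mM 2-DG and -0.36 (adjusted p = 0.00950) at 20 mM 2-DG. SLC2A1 shares 128 exon bases with the antisense gene SLC2A1-AS1 and 112 with AC099795.1 on its own strand, and whether reads were counted by strand is not given in the sources used here.

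SLC2A3, a carrier with a high affinity for glucose that is typical of neurons, rose. The control libraries held 10.4, 11.4 and 11.7 FPKM. The 10 mM 2-DG libraries held 21.0, 19.5 and 19.0 FPKM, and the 20 mM 2-DG libraries held 21.6, 20.0 and 20.7 FPKM. The lowest treated library was well above the highest control library, and the libraries of the 2 doses overlapped. The mean went from 11.2 ± 0.698 FPKM in the control to 19.8 ± 1.08 FPKM at 10 mM 2-DG and 20.8 ± 0.793 FPKM at 20 mM 2-DG, which is 1.77-fold and 1.86-fold. The log2 fold change was 0.78 (SE 0.0658, adjusted p = 3.18e-05 from limma's test) and 0.84 (adjusted p = 1.13e-05). SLC2A14 is a close relative of SLC2A3, and 4.19% of the 100-base windows of SLC2A3 transcripts also occur in it. SLC2A14 had between 23 and 72 reads per library, at most 1.57% of the reads of both genes together, and its own values are uncertain for this reason.

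The carriers on inner membranes did not move as a group. SLC2A8, found on endosomal and lysosomal membranes, fell from 2.65, 2.85 and 2.54 FPKM in the control to 1.93, 1.60 and 1.21 FPKM at 10 mM 2-DG. The libraries at 20 mM 2-DG held 1.50, 1.75 and 1.42 FPKM. No treated library reached the control range. The mean was 2.68 ± 0.160 FPKM (SD, n = 3) in the control, 1.58 ± 0.360 FPKM at 10 mM 2-DG and 1.56 ± 0.169 FPKM at 20 mM 2-DG, so it was 41.2% and 42.0% lower. On the log2(FPKM + 1) scale, which understates changes of low genes, the fold change was -0.52 (SE 0.113, adjusted p = 0.00676 from limma's test) and -0.53 (adjusted p = 0.00496). The log2 ratio of the mean FPKM was -0.77 and -0.79. These values rest on between 163 and 411 reads per library.

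SLC2A6, a lysosomal carrier best known from macrophages, did not pass the test at either dose. The libraries held 16.3, 15.3 and 13.7 FPKM in the control, 15.9, 19.1 and 15.6 FPKM at 10 mM 2-DG and 16.7, 16.5 and 17.0 FPKM at 20 mM 2-DG. The 20 mM libraries lay just above the highest control library, while those at 10 mM 2-DG overlapped with the control. The log2 fold change was 0.15 at 10 mM 2-DG, with a 95% interval of -0.05 to 0.34 (adjusted p = 0.232 from limma's test). At 20 mM 2-DG it was 0.14, with the same interval (adjusted p = 0.228).

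SLC2A10, whose loss causes arterial tortuosity syndrome, was near the lower end of what these libraries can measure. The control libraries held 0.122, 0.113 and 0.0964 FPKM, from 21, 20 and 16 reads. At 10 mM 2-DG they held 0.259, 0.157 and 0.247 FPKM, from 44, 31 and 41 reads, all above the control. At 20 mM 2-DG they held 0.127, 0.322 and 0.113 FPKM, from 19, 62 and 18 reads, so 1 library stood apart and the other 2 were within or just above the control range. The mean was 2.00-fold the control at 10 mM 2-DG and 1.69-fold at 20 mM 2-DG, and neither difference passed (adjusted p = 0.153 and 0.308 from limma's test). The 95% interval of the log2 fold change was -0.01 to 0.28 at 10 mM 2-DG and -0.05 to 0.24 at 20 mM 2-DG, on the log2(FPKM + 1) scale, which shrinks changes at this level. By limma-voom on the recovered reads it was 0.93 (-0.03 to 1.89) at 10 mM 2-DG and 0.65 (-0.37 to 1.66) at 20 mM 2-DG. Without replicate 2 at 20 mM 2-DG, the log2 fold change at that dose was 0.012, and the adjusted p at 10 mM 2-DG became 0.0478. Over 17 alternative settings, that adjusted p lay between 0.0478 and 0.321.

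Of the enzymes, HKDC1 gave the largest change of all 9 genes. The control libraries held 5.32, 5.76 and 4.06 FPKM. At 10 mM 2-DG they held 20.3, 16.2 and 14.7 FPKM, and at 20 mM 2-DG they held 22.8, 20.9 and 19.3 FPKM. Every treated library was more than 2-fold above the highest control library. The mean rose from 5.05 ± 0.882 FPKM (SD, n = 3) to 17.1 ± 2.93 FPKM and 21.0 ± 1.78 FPKM, which is 3.38-fold and 4.16-fold. The log2 fold change was 1.58 (95% interval 1.28 to 1.88, adjusted p = 3.18e-05 from limma's test) at 10 mM 2-DG and 1.87 (1.57 to 2.17, adjusted p = 6.57e-06) at 20 mM 2-DG. By size of the log2 fold change on the log2(FPKM + 1) scale, it stood at place 18 from the top at 10 mM 2-DG. At 20 mM 2-DG it stood at place 13, of the 16572 genes tested. HKDC1 shares 143 exon bases with AL596223.2, an antisense gene, and no 100-base window with another gene.

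HK2, the inducible enzyme that binds to the outer mitochondrial membrane, fell. Its level was 19.8, 26.0 and 21.9 FPKM in the control, 17.7, 11.1 and 12.8 FPKM at 10 mM 2-DG and 13.4, 13.8 and 13.8 FPKM at 20 mM 2-DG. The libraries of both doses lay below the control, with 1 library at 10 mM 2-DG closer to it than the others. The mean was 22.6 ± 3.13 FPKM in the control, 13.9 ± 3.43 FPKM at 10 mM 2-DG and 13.7 ± 0.213 FPKM at 20 mM 2-DG, which is 38.6% and 39.3% lower. The log2 fold change was -0.68 (SE 0.146, adjusted p = 0.00668 from limma's test) and -0.67 (adjusted p = 0.00541). Of the 100-base windows of HK2 transcripts, 2.60% also occur in its pseudogene HK2P1.

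HK1, the form found in most tissues, had the second highest level in the control and moved little. The control libraries held 79.7, 80.8 and 76.6 FPKM, the 10 mM 2-DG libraries 87.3, 81.5 and 80.1 FPKM and the 20 mM 2-DG libraries 93.1, 90.4 and 89.5 FPKM. At 10 mM 2-DG the libraries overlapped with the control (log2 fold change 0.07, 95% interval -0.05 to 0.19, adjusted p = 0.376 from limma's test). With 20 mM 2-DG all 3 lay above it, with a mean of 91.0 ± 1.86 FPKM against 79.0 ± 2.15 FPKM, 15.2% higher (log2 fold change 0.20, SE 0.0536, adjusted p = 0.0148 by limma). That call was lost without control replicate 3 (0.18, adjusted p = 0.0521) and without 20 mM 2-DG replicate 1 (0.19, adjusted p = 0.0653). Over 17 alternative settings of the fit, its adjusted p in limma's test lay between 0.00801 and 0.0653. HK1 lies 2424 bases after HKDC1, and its change at each dose was far smaller than that of its neighbour.

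HK3, the form of blood cells, was at 0 in 8 of the 9 libraries and had 1 read in replicate 3 at 10 mM 2-DG (0.00880 FPKM). A count of 0 allows up to 3 reads, which is between 0.0222 and 0.0293 FPKM depending on the library and covers counting error only. It was below the filter on reads, so no fold change or test is given.

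**Figure D3:**
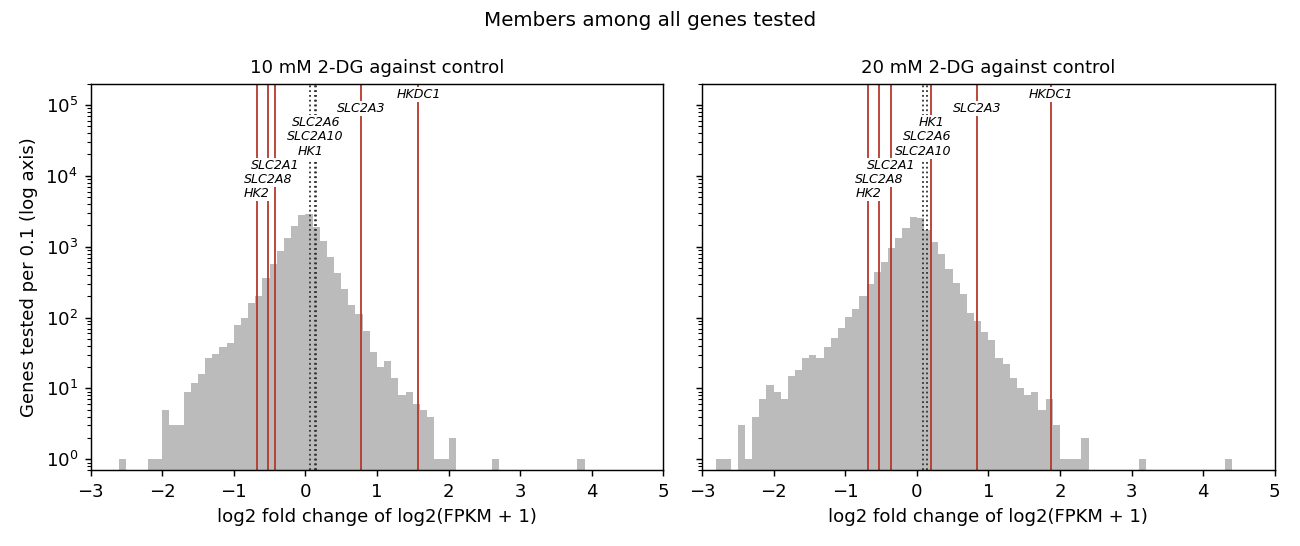
Number of genes tested per 0.1 of log2 fold change on the log2(FPKM + 1) scale (log vertical axis) for each dose against the control, with the 8 genes as lines, red where the adjusted p was under 0.05 and dotted black otherwise. HKDC1 is the rightmost of the 8 lines in both panels, at 1.58 and 1.87, with few genes beyond it, SLC2A3 at 0.78 and 0.84, and HK2 is the leftmost of the 8 genes.

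Set among all genes tested at 20 mM 2-DG, 98.3% had a lower log2 fold change than SLC2A3, 79.9% lower than HK1, 74.2% lower than SLC2A6 and 68.4% lower than SLC2A10. The shares were 14.95% for SLC2A1, 8.22% for SLC2A8 and 4.91% for HK2. The median log2 fold change of all genes was -0.01 at 10 mM 2-DG and -0.02 at 20 mM 2-DG. The libraries of a dose did not overlap with the control for 3 higher and 3 lower genes of the 8 at 10 mM 2-DG, where 17.8% of all genes tested were higher without overlap and 22.7% lower. At 20 mM 2-DG this held for 4 higher and 3 lower genes, where 23.3% of all genes were higher without overlap and 29.9% lower.

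Between 20 mM and 10 mM 2-DG, 0 of the 8 genes passed, and 0% of all genes tested were called higher or lower. Without adjustment, 1139 of the 16572 genes were under 0.05 by limma, and limma-voom on the recovered reads also called 0. By the stricter rule, on the log2(FPKM + 1) scale, none of the 8 was called. Of all genes, 0.00603% were called in the higher and 0% in the lower direction. HK1 had a log2 fold change of 0.13 (95% interval 0.01 to 0.25, unadjusted p = 0.0326 and adjusted p = 0.685 from limma's test). It was the only one of the 8 whose libraries did not overlap between doses, while 4.71% of all genes were higher and 7.14% lower without overlap. HKDC1 differed by 0.29 (-0.01 to 0.59, adjusted p = 0.733 from limma's test) and its libraries overlapped. For SLC2A1 the interval was -0.13 to 0.26, for SLC2A3 -0.08 to 0.21, for SLC2A6 -0.20 to 0.19, for SLC2A8 -0.26 to 0.25 and for HK2 -0.32 to 0.33. Differences between the doses within these intervals could not be told from 0 with 3 libraries each.

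Since FPKM is per length, the levels can be added within a library. The carrier sum and the shares within it depend on the length used for SLC2A1, which differs from that in GENCODE as given above. The summed FPKM of the 4 hexokinase genes was 107 ± 5.21 (SD, n = 3) in the control, 114 ± 9.93 at 10 mM 2-DG and 126 ± 3.44 at 20 mM 2-DG. An exact permutation test over the 3 groups gave p = 0.0679 (adjusted p = 0.0905 over the 8 sums and shares tested). The summed FPKM of the 5 carriers was 124 ± 8.83, 109 ± 9.39 and 113 ± 2.76 (exact permutation p = 0.118, adjusted p = 0.135). The shares of single genes within the sums were compared in the same way. HKDC1 made up 4.72 ± 0.657% of the hexokinase sum in the control, 14.9 ± 1.30% at 10 mM 2-DG and 16.7 ± 0.959% at 20 mM 2-DG (exact permutation p = 0.00714). HK2 made up 21.1 ± 2.09%, 12.1 ± 1.97% and 10.9 ± 0.445% (exact permutation p = 0.0179). HK1 held most of the sum throughout, at 74.2 ± 2.16%, 73.0 ± 2.90% and 72.4 ± 0.557% (exact permutation p = 0.646).

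In the carrier sum, SLC2A1 made up 76.5 ± 1.01% in the control, 64.5 ± 1.79% at 10 mM 2-DG and 65.2 ± 0.268% at 20 mM 2-DG (exact permutation p = 0.0214). The share of SLC2A3 was 9.08 ± 1.13%, 18.3 ± 0.854% and 18.4 ± 0.260% (exact permutation p = 0.0321). The share of SLC2A6 was 12.2%, 15.5% and 14.9% (exact permutation p = 0.0321), although the level of SLC2A6 itself did not pass its test. Adjusted over the 8 quantities, the shares of HKDC1, HK2, SLC2A1, SLC2A3 and SLC2A6 each had an exact permutation p = 0.0514 and so did not pass 0.05. The smallest p that the 1680 arrangements of the libraries allow is 0.00357.

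**Figure D4:**
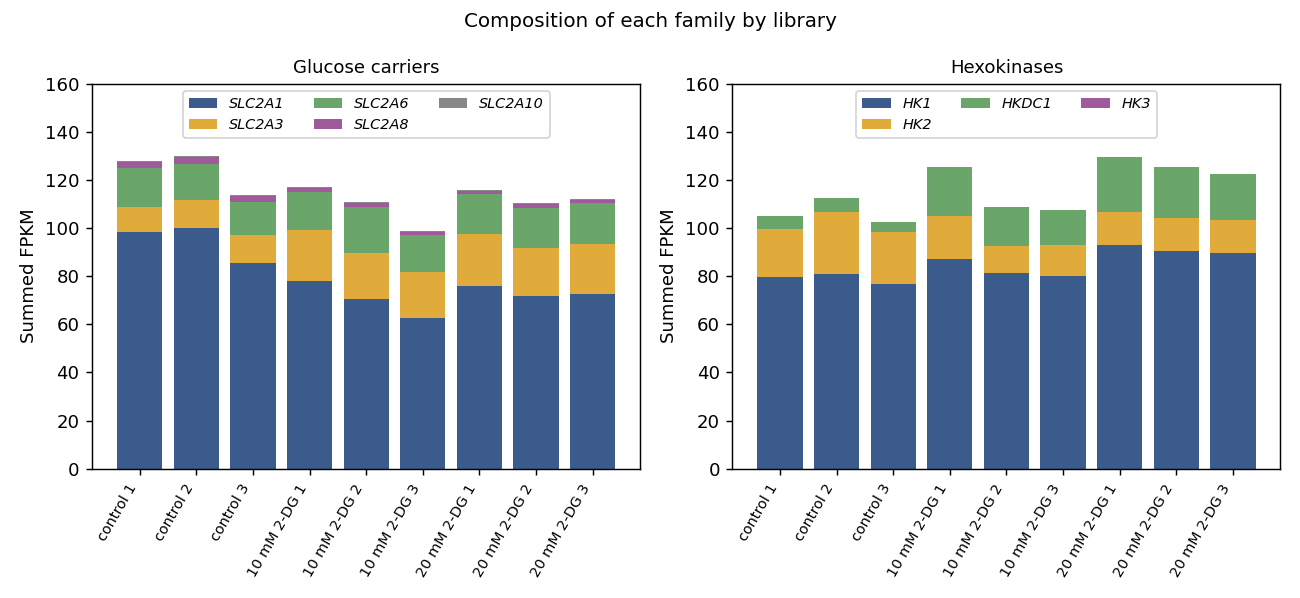
Summed FPKM (vertical axes) of the 5 carriers and of the 4 hexokinase genes in each of the 9 libraries, stacked by gene. The HKDC1 part goes from 4.72% of the hexokinase sum in the control to 16.7% at 20 mM 2-DG while the HK2 part goes from 21.1% to 10.9%, and the SLC2A3 part of the carrier sum goes from 9.08% to 18.4%.

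Levels per length can also be set against each other within a library. The ratio of HKDC1 to HK2 was 0.268, 0.222 and 0.186 in the control, 1.15, 1.47 and 1.14 at 10 mM 2-DG and 1.70, 1.51 and 1.40 at 20 mM 2-DG. HK2 thus had the higher level in each control library and HKDC1 in each treated library. The ratio of SLC2A1 to SLC2A3 was 9.46, 8.78 and 7.29 in the control, 3.71, 3.61 and 3.30 at 10 mM 2-DG and 3.51, 3.58 and 3.52 at 20 mM 2-DG. SLC2A1 stayed the higher of the 2 carriers in all 9 libraries. The size of this ratio in each library depends on the length used for SLC2A1, while its fold change between conditions does not. These ratios describe RNA levels and not the amount or activity of the proteins.

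The other genes around these steps were taken from lists and named after their values were seen. Of 15 other carriers listed, 7 had enough reads, all of the SLC2A or SLC5A family. SLC2A12 was lower at both doses (0.127 ± 0.0474 and 0.121 ± 0.0414 FPKM, against 0.431 ± 0.0683 FPKM in the control), and SLC2A14 and SLC5A11 were higher at 20 mM 2-DG, all at low levels. Of the 7, 0 were higher and 1 lower at 10 mM 2-DG, against 12.1% and 17.5% of all genes tested. At 20 mM 2-DG, 2 were higher and 1 lower, against 15.4% and 21.6%. The median log2 fold change of the 7 was 0.11 and 0.01 at the 2 doses. Of 10 other genes of hexose phosphorylation and of glucose-6-phosphate handling with enough reads, 1 was higher and 4 lower at 10 mM 2-DG, and 2 higher and 6 lower at 20 mM 2-DG, with medians of -0.24 and -0.32, where 12.1% and 15.4% of all genes tested were higher and 17.5% and 21.6% lower at the 2 doses. The lower ones included SLC37A4, which carries glucose-6-phosphate into the endoplasmic reticulum, at 7.73 ± 0.472 FPKM in the control and 3.42 ± 0.328 FPKM at 20 mM 2-DG (log2 fold change -0.98, with an adjusted p of 2.32e-05 by limma). Its relative SLC37A2 went from 43.3 ± 1.09 to 22.7 ± 1.37 FPKM (-0.91, adjusted p = 3.66e-06 from limma's test). The higher ones at 20 mM 2-DG were GCKR, the regulator of glucokinase, and NAGK, which phosphorylates N-acetylglucosamine. GCKR stayed at a low level, with 0.199 ± 0.0476 FPKM in the control and 0.580 ± 0.120 FPKM at 20 mM 2-DG. NAGK went from 5.01 ± 0.0448 to 6.52 ± 0.323 FPKM.

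Of 18 genes of glycolysis after the hexokinase step, 16 had enough reads, and 13 were lower and 0 higher at each dose, against 17.5% and 21.6% of all genes called lower at 10 mM and 20 mM. The median log2 fold change of the 16 was -0.37 at both doses, close to that of SLC2A1. GPI, the enzyme that takes the product of hexokinase, changed least of the 13 at 20 mM 2-DG (-0.16, adjusted p = 0.0487 from limma's test), and ALDOC, an aldolase, changed most (-1.11, adjusted p = 0.000154 from limma's test). Of 17 regulators of carriers and hexokinases, 3 were higher and 2 lower at 10 mM 2-DG, and 3 higher and 3 lower at 20 mM 2-DG, with medians of -0.04 and 0.02. These counts lie near the shares of all genes, 12.1% and 15.4% higher and 17.5% and 21.6% lower. TXNIP, an arrestin that takes SLC2A1 off the cell surface, went from 52.1 ± 5.31 FPKM in the control to 137 ± 4.30 FPKM at 10 mM and 165 ± 5.89 FPKM at 20 mM 2-DG (log2 fold change 1.39 and 1.65). ARRDC4, its relative, went from 0.305 ± 0.107 to 2.14 ± 0.259 and 2.99 ± 0.197 FPKM. The other higher one was the transcription factor MYC, with 41.0 ± 1.64 FPKM in the control and 57.8 ± 1.21 FPKM at 20 mM 2-DG. AKT1 and VDAC3, the latter a channel of the outer mitochondrial membrane, were lower at both doses, and HIF1A, the hypoxia factor that acts on SLC2A1 and HK2, was lower at 20 mM 2-DG (85.8 ± 12.6 against 62.5 ± 5.25 FPKM, adjusted p = 0.0380 from limma's test). All of these lists had 0 genes called between the doses.

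The genes most like 4 of the members were found by Pearson's r of log2(FPKM + 1) over the 9 libraries, among 10425 named genes with a mean of at least 1 FPKM. For SLC2A1 they were EHD4 (r = 0.988), SBNO2 (0.987) and AP2A1 (0.987). For SLC2A3 they were GNPDA1 (0.995), TMED10 (0.995) and RRAS2 (0.994). For HK2 they were SAP130, DIAPH1 and ASXL1, each at r = 0.991. For HK1 they were ASB1 (0.978), ADAMTS16 (0.962) and SLC7A6OS (0.959). The 9 libraries fall into 3 conditions, which the points therefore share, and r is given as a description only.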

How the data were processed

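Total RNA (Qiagen RNeasy, SMARTER mRNA-Seq libraries, an Illumina instrument) was measured in 9 MDA-MB-231 libraries. The authors deposited 1 FPKM file per library, and their processing notes name GRCh 38 / hg 38. The aligner, counting tool and annotation are not given in the sources used here. The authors called differential genes with DESeq2, which needs counts. The deposited values are FPKM, so log2(FPKM + 1), with a pseudocount of 1, was fitted by limma 3.58.1 (R 4.3.3) over all 9 libraries with a variance trend. P-values were adjusted by Benjamini-Hochberg over all genes in the fit.

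Library totals were recovered from the FPKM steps with exon lengths of GENCODE release 29. Whole reads then came out for 32805 of 32806 genes above 0, at the GENCODE length for 15940 genes and otherwise at the length that made the values whole, and made up 99.82% to 99.88% of the totals. They are not the authors' counts. A gene was tested if 3 or more libraries had 10 or more reads, scaled to the median depth, and the 9 libraries summed to 15 or more. Replicates differed by 4.66 to 56.7 times the sampling variance, so none was taken for a repeat of another. The range was 14.1 to 21.5 in the control, 26.4 to 56.7 at 10 mM 2-DG and 4.66 to 6.57 at 20 mM 2-DG. The main fit gave each gene the same spread in every condition, although these ranges did not overlap. Sums and shares of FPKM were compared with exact permutation tests of the F statistic over 3 groups. The fit was also run on simulated reads, with the same setting of spread for every gene and condition. That run therefore does not cover the unequal spread described above. The interval or floor of a count covers counting error only.

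The 9 members and the gene lists were chosen with earlier results of these data known. All members are named; genes of other lists only where a count was small or a result concerned them, after their values were seen; and for SLC2A1, SLC2A3, HK1 and HK2 the 3 genes with the highest correlation. The alternatives were another pseudocount, filter, scaling, threshold, limma-voom, a replicate block, and leaving out each library.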

Additional observations from a re-analysis of the deposited data

How the results depend on the processing

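Over 17 other settings of the fit, the calls for SLC2A1, SLC2A3, SLC2A8, HK2 and HKDC1 kept their direction and an adjusted p under 0.05 at both doses in limma's test, the highest being 0.0377, for SLC2A1 at 20 mM 2-DG. HK1 at 20 mM 2-DG lost its call without either of 2 libraries. The study's own rule was p under 0.05 without adjustment and a log2 fold change beyond 1. On the log2(FPKM + 1) scale it called 1 of the 9 genes higher, HKDC1, and 0 lower at each dose. Between the doses, 0 of the 8 genes tested passed under any of the 17 settings. When each library was left out in turn, 2 to 3 genes were higher at each dose and 3 lower. In the same fits, 1505 to 2043 of the 16572 genes tested were called higher at 10 mM 2-DG and 2343 to 2843 lower. At 20 mM 2-DG these counts were 1904 to 2799 higher and 2752 to 3803 lower.

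The labels do not say whether the replicate numbers pair the libraries, and the main fit used the group only. In their deviations from the group means, same-numbered libraries correlated between -0.406 and 0.293. Libraries with different numbers correlated between -0.230 and 0.521, the highest being control replicate 1 with 10 mM 2-DG replicate 2. Correlations of this kind cannot decide whether the libraries were paired. With a replicate block, the calls of the 8 genes tested stayed as they were. With labels permuted within a replicate number (replicate block), the HK2 share had an exact permutation p = 0.0833 over the 3 groups. The SLC2A1 share had an exact permutation p = 0.0556 over the 3 groups. Permuting within a replicate number allows fewer arrangements than the unrestricted test above, so the smallest possible p is higher. At 20 mM 2-DG against control, a contrast not tested alone, the HK2 share differed by -10.2 percentage points and the SLC2A1 share by -11.3 points. Without HK1 in the sum the HK2 share differed by -42.1 points, and without SLC2A3 the SLC2A1 share by -4.21 points. With the same reads divided by GENCODE lengths, chosen after seeing the data, the HK2 and SLC2A1 shares differed by -10.0 and -9.53 points.

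Between the doses, log2 fold changes near 0 changed sign, none past the threshold, and the cause was not tested. With median-ratio scaling SLC2A6 was at 0.012 and SLC2A8 at 0.0070. With limma-voom and median-ratio scaling, added after seeing the data, they were at 0.0092 and 0.022, and with limma-voom alone SLC2A8 was at 0.0067. With a pseudocount of 0.1 SLC2A8 was at 6.1e-05. Leaving out 1 library gave -0.013 to 0.14 for SLC2A1, -0.055 to 0.084 for SLC2A6, -0.11 to 0.093 for SLC2A8, -0.12 to 0.00080 for SLC2A10 and -0.13 to 0.19 for HK2. Depth limits SLC2A10, at 16 to 62 reads, and HK3.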
